A study of Homo sapiens with 4 samples.

Results

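Neprilysin (MME) and 8 other cell-surface enzymes that trim or inactivate extracellular messengers were examined: the peptidases ANPEP, DPP4, FAP, ECE1, ECE2, LNPEP and ENPEP and the nucleotidase NT5E. The set was chosen by name with the NRP2-high against NRP2-low values of MME already known, so the values of its members are given as a description and carry no test. Of the 9 genes, 7 had a row among the 31681 genes of the count table, matched on the gene name, and all 7 were among the 15083 genes tested. The expression of ECE2 and ENPEP was not analysed here.

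The study compared populations of BT549 cells, an established human triple-negative breast cancer line, that differed in the level of neuropilin-2 (NRP2), a co-receptor for vascular endothelial growth factors. There were 2 NRP2-high libraries and 2 NRP2-low libraries. All 4 came from the one cell line, and neither population carries a treatment or an engineered allele in the labels. How the populations were separated is not described in the sources used here, and no source says whether the 2 NRP2-high or the 2 NRP2-low libraries were grown as independent cultures. The errors and p-values therefore cover the library-to-library spread alone, and part or all of it may be technical.

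The libraries held 18727299 and 20585102 counts in the NRP2-high population and 19183827 and 18165923 in the NRP2-low population. NRP2 itself had 2588 and 2839 counts in NRP2-high libraries, against 195 and 166 in NRP2-low libraries, in the direction of the labels. Log2 CPM (counts scaled to library size) correlated across tested genes with r = 0.993 between the NRP2-high libraries and r = 0.995 between the NRP2-low libraries. Mitochondrial genes took 6.92% and 9.16% of counts in NRP2-high libraries and 5.57% and 5.85% in NRP2-low libraries, and leaving those genes out changed no call among the members. The 2 populations differed widely: at an adjusted p below 0.05 in edgeR's quasi-likelihood test, 4354 genes (28.9%) were higher in NRP2-high cells and 4175 (27.7%) lower, together 56.5% of the genes tested.

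Surface peptidases, or ectopeptidases, are membrane enzymes whose catalytic domain faces outward, where they cut peptide hormones, chemokines and neuropeptides close to their receptors. Neprilysin cleaves enkephalins, substance P, bradykinin and natriuretic peptides within the chain, aminopeptidases remove residues from the N-terminus, and dipeptidyl peptidases cut behind a proline or alanine. In the normal breast, neprilysin (also called CD10 or CALLA) is a surface marker of myoepithelial cells, which lie between luminal cells and the basement membrane. NT5E (CD73) is not a peptidase. It is the ectonucleotidase that turns extracellular AMP into adenosine, and shares with the others a role in setting the level of a messenger outside the cell.

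The promoters of MME and DPP4 are shown because these are the members whose levels differed most, in opposite directions. Each is a RefSeq window of 250 bases before to 50 bases after an annotated start on GRCh38.p14, read on the gene's own strand from 5′ to 3′. The MME window, the most upstream of 4 annotated, is chr3:155079422-155079721 on the plus strand. The MME gene as counted starts further upstream, at 155024124, and none of the 4 windows covers that start. The DPP4 window, the one annotated, is chr2:162074166-162074465 on the minus strand. Capitals mark the GC box GGGCGG, the core of a binding site for SP-family factors, on either strand.
MME: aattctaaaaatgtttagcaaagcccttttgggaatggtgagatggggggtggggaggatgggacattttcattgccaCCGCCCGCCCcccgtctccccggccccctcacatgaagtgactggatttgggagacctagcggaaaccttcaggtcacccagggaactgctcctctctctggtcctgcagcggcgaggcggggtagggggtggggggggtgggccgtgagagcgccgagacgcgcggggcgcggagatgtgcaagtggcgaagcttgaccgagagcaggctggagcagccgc
DPP4: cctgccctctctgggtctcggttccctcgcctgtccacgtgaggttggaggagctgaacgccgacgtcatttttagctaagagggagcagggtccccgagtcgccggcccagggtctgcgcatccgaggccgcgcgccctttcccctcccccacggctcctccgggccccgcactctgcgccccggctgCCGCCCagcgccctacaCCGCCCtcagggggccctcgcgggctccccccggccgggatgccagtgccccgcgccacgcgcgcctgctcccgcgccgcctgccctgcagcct
Both windows held 2 GC boxes, which overlap each other in MME. The motif was present in 10 of the 15 windows annotated for MME, ECE1, ANPEP, LNPEP, DPP4, NT5E and ENPEP, and in 44.95% of all 35116 promoter windows. Of the bases, 63.3% were G or C in the MME window and 75% in the DPP4 window, beside a median of 58.7% over all windows, and CpG dinucleotides numbered 19 and 34 beside a median of 14. Neither window held the letters TATAAA, the GLI motif GACCACCCA, the interferon-response motif GAAANNGAA or the STAT motif TTCNNNGAA on either strand. Those 4 motifs occurred in 11.5%, 0.236%, 8.11% and 7.66% of all windows, in that order.

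Of the 7 members, DPP4 and ANPEP were past the threshold as higher in NRP2-high cells, MME as lower, and 4 did not pass (ECE1, LNPEP, FAP and NT5E). Over all tested genes the background was 28.9% higher, 27.7% lower and 56.5% in either direction. The median log2 fold change of the members was 0.05, beside -0.01 for all tested genes. Nothing is read from these counts, since the set was selected on this contrast.

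MME, the zinc metalloendopeptidase neprilysin (ENSG00000196549.10, hg38 chr3:155024124-155180849, plus strand), was close to undetected in NRP2-high cells and moderately expressed in NRP2-low cells. It had 14 and 23 counts in NRP2-high libraries, against 1291 and 1189 in NRP2-low libraries. Scaled for gene length and depth (TPM), the values were 0.276 and 0.387 against 24.8 and 24.1. The mean CPM was 0.974 ± 0.300 in NRP2-high cells and 64.0 ± 1.15 in NRP2-low cells (SD, n = 2 each). The populations did not overlap, and each NRP2-high count stood above the 3 counts (0.151 to 0.163 CPM) that a count of 0 would allow. The fitted log2 fold change was -6.02 ± 0.14 (SE), or 64.9-fold lower in NRP2-high cells, the 24th lowest of 15083 genes. By mean TPM, MME ranked 19236th of all genes in NRP2-high cells and 5668th in NRP2-low cells.

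The size of the MME difference depended on the scale, and its direction did not. Over 14 alternatives in processing, the log2 fold change lay between -6.38 and -2.85, with the smallest size on log2(FPKM + 1), where the added constant outweighs the NRP2-high values. Leaving out each library in turn gave -6.38 to -5.74. An antisense gene, MME-AS1, overlaps MME and had 0 and 0 counts in NRP2-high libraries, against 1 and 1 in NRP2-low libraries. Of the 5 rows within 500 kb of MME, MME-AS1 included, none passed the filter on low counts, so no tested neighbour was present with which to compare it.

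The 5 genes with the pattern most like that of MME, by Euclidean distance between log2 CPM profiles over the 4 libraries, were RNF150, OAS3, KRT5, CAVIN2 and LITAF. Their distances were 0.85, 1.31, 1.49, 1.63 and 1.82 log2 units. RNF150, a RING-finger protein, had 24 and 20 counts in NRP2-high libraries, against 1045 and 959 in NRP2-low libraries. KRT5, a keratin of basal and myoepithelial cells, had 34 and 36 counts against 896 and 867. The log2 fold changes of the 5 genes ran from -5.46 for RNF150 to -4.61 for KRT5, so each was nearly silent in the population in which MME was. They were ranked for likeness to MME over these same libraries and carry no test.

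ECE1, the endothelin-converting enzyme of the neprilysin family (ENSG00000117298.15, hg38 chr1:21217247-21345504, minus strand), had similar levels in both populations. It had 2448 and 2492 counts in NRP2-high libraries, against 2410 and 2260 in NRP2-low libraries, and 63.2 and 55.0 TPM against 60.7 and 60.1 TPM. The log2 fold change of 0.12 ± 0.05 (SE) did not pass, and ran from -0.03 to 0.15 over the alternatives, with negative values on the TPM scales only. Without NRP2-high replicate 2 it passed as higher, at 0.15. The NRP2-high CPM values lay above both NRP2-low values, whereas the TPM values overlapped. Of the family outside the members, only PHEX, a regulator of phosphate handling, was tested. It had 88 and 97 counts in NRP2-high libraries against 115 and 105 (log2 fold change -0.21, edgeR adjusted p = 0.275). MMEL1, the closest relative of neprilysin, had 0 and 0 counts in NRP2-high libraries against 1 and 0, and KEL did not exceed 1 in any library.

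**Figure D1:**
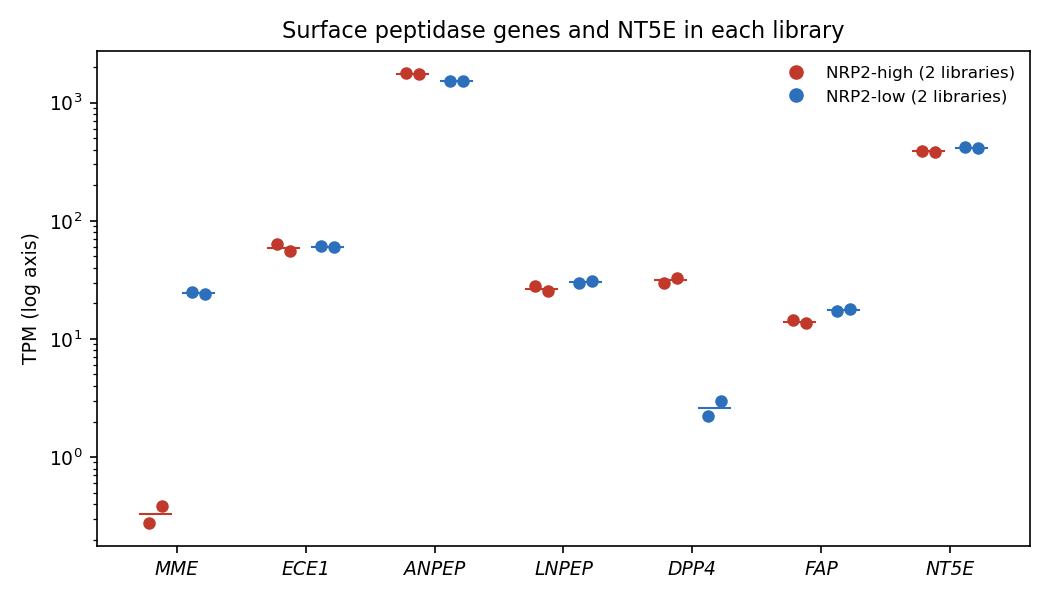
TPM of the 7 members in each of the 4 libraries on a log axis, with NRP2-high libraries left of NRP2-low libraries for each gene and a short line at the mean of each population. MME lies below 0.4 TPM in both NRP2-high libraries and DPP4 below 3 TPM in both NRP2-low libraries, while the other 5 members sit at nearly the same height in both populations.

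ANPEP, aminopeptidase N or CD13 (ENSG00000166825.13, hg38 chr15:89784889-89815401, minus strand), was by far the most abundant member in both populations. Its TPM was 1775 and 1756 in NRP2-high libraries, against 1515 and 1534 in NRP2-low libraries, from 45663 and 52865 counts against 39970 and 38294. It ranked 31st of all genes by mean TPM in NRP2-high cells and 57th in NRP2-low cells. ANPEP alone made up 77.2% and 77.4% of the summed TPM of the members in NRP2-high libraries and 73.3% and 73.6% in NRP2-low libraries. The populations did not overlap, with 2606 ± 171 CPM in NRP2-high cells and 2021 ± 20.2 CPM in NRP2-low cells (SD, n = 2 each). The log2 fold change was 0.37 ± 0.06 (SE), a 1.29-fold difference, and stayed between 0.21 and 0.44 over the alternatives.

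LNPEP, the insulin-regulated aminopeptidase that degrades oxytocin and vasopressin (ENSG00000113441.15, hg38 chr5:96935394-97037515, plus strand), differed by less than its standard error. It had 2248 and 2397 counts in NRP2-high libraries, against 2464 and 2430 in NRP2-low libraries, and a log2 fold change of -0.04 ± 0.05 (SE). Its TPM was 27.9 and 25.4 against 29.8 and 31.1. In CPM the values were 122.3 and 123.6 against 123.7 and 129.1, so the populations were barely apart in that unit. The NRP2-high values lay below the NRP2-low values in both CPM and TPM. The difference passed the threshold only without TMM factors (log2 fold change -0.15). That scaling moves the median of all tested genes to -0.12, and relative to that median the value was -0.03.

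Among the other aminopeptidases, 4 of 7 tested genes were lower in NRP2-high cells, 0 were higher and 3 did not pass, with a median log2 fold change of -0.71. For this and each later list, the share over all tested genes was 28.9% higher and 27.7% lower, 56.5% in either direction. No list was tested as a set. The 2 trimming enzymes of the endoplasmic reticulum whose genes lie beside LNPEP, ERAP1 and ERAP2, were among the 4 lower genes. ERAP1, which shortens peptides for MHC class I, had 837 and 920 counts in NRP2-high libraries, against 1865 and 1826 in NRP2-low libraries (log2 fold change -1.04 ± 0.06 SE, edgeR adjusted p = 1.56e-07). ERAP2 had 30 and 45 counts against 103 and 101 (-1.41 ± 0.21 SE, edgeR adjusted p = 0.000213). RNPEPL1 fell by 1.05 and LTA4H, which makes leukotriene B4, fell by 0.71 on the log2 scale (edgeR adjusted p = 3.97e-05 and 1.04e-05). NPEPPS, RNPEP and AOPEP, the 3 that did not pass, had log2 fold changes between -0.06 and 0.07.

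DPP4, dipeptidyl peptidase 4 or CD26 (ENSG00000197635.9, hg38 chr2:161992241-162074542, minus strand), showed the opposite pattern to MME. This serine peptidase clips incretins and several chemokines, among them CXCL12. DPP4 had 794 and 1017 counts in NRP2-high libraries, against 61 and 76 in NRP2-low libraries. Its TPM was 30.0 and 32.9 against 2.25 and 2.96, and its CPM 47.8 ± 6.53 against 3.55 ± 0.691 (SD, n = 2 each). The populations did not overlap, and the log2 fold change was 3.75 ± 0.15 (SE), 13.5-fold higher in NRP2-high cells and the 147th highest of the genes tested. It ran from 2.55 to 3.96 over the alternatives, and from 3.55 to 3.96 when each library was left out.

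FAP, fibroblast activation protein, is a close relative of DPP4 that cuts denatured collagen and is used as a marker of activated stroma (ENSG00000078098.13, hg38 chr2:162170684-162245151, minus strand). It lies near DPP4 on the same strand of the chromosome and did not show a difference of that size. FAP had 531 and 591 counts in NRP2-high libraries, against 651 and 649 in NRP2-low libraries, and 14.4 and 13.7 TPM against 17.2 and 18.1 TPM. Both NRP2-high values lay below both NRP2-low values. The log2 fold change of -0.18 ± 0.08 (SE) did not pass, but FAP passed as lower in 5 of the 14 alternatives, with values from -0.33 to -0.13 over all of them. Those were the fits without TMM factors, on log2 TPM or log2 FPKM, and without NRP2-high replicate 2, which gave -0.21 relative to the median of all genes. Relative to that median the other 4 lay between -0.18 and -0.16.

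**Figure D2:**
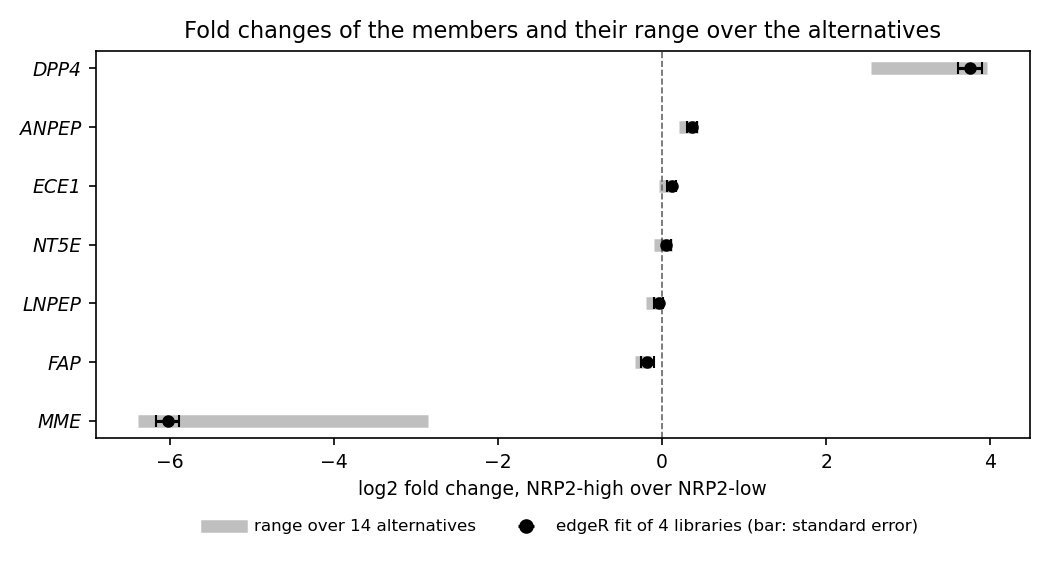
Log2 fold change of each member, NRP2-high over NRP2-low, with points and black bars for the edgeR estimate and its standard error over 4 libraries and grey bars for the range over 14 alternatives. MME at -6.02 and DPP4 at 3.75 lie far from 0 under every alternative, ANPEP lies just above 0, and the grey bars of ECE1 and NT5E cross 0.

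Of the tested neighbours of the DPP4 and FAP genes within 500 kb, IFIH1 and GCA were lower in NRP2-high cells and the pseudogene AHCTF1P1 was higher (log2 fold change 0.49, edgeR adjusted p = 0.0111). These neighbours were looked up after the values were known. IFIH1, the cytosolic sensor of viral RNA also called MDA5, had 71 and 96 counts in NRP2-high libraries against 591 and 528 (log2 fold change -2.71, edgeR adjusted p = 2.41e-08). GCA, grancalcin, had 4 and 7 counts against 66 and 86 (log2 fold change -3.73, edgeR adjusted p = 7.29e-06). GCG, the gene for glucagon and an incretin that DPP4 cleaves, lies there too and had 0 counts in all 4 libraries. Antisense rows overlapping DPP4 and FAP reached no more than 2 and 13 counts in a library. The library kit marks strand, but the strand setting of the counting is not stated in the sources used here.

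Among the other dipeptidyl and prolyl peptidases, which are mostly intracellular, 2 of 7 tested genes were higher in NRP2-high cells, 1 was lower and 4 did not pass. Prolyl endopeptidase, PREP, had 3077 and 3231 counts in NRP2-high libraries, against 1787 and 1654 in NRP2-low libraries (log2 fold change 0.91 ± 0.05 SE, edgeR adjusted p = 1.07e-07). PRCP, a lysosomal prolylcarboxypeptidase, was higher by 0.87 and DPP7 lower at -1.34 (edgeR adjusted p = 4.01e-07 and 7.55e-07). The cytosolic DPP8 and DPP9, which share the specificity of DPP4, had log2 fold changes of 0.12 and 0.02 and did not pass, nor did APEH at -0.11. The median of the list was 0.11.

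NT5E, the ectonucleotidase CD73 (ENSG00000135318.11, hg38 chr6:85449584-85495791, plus strand), was second in abundance to ANPEP. It had 9292 and 10787 counts in NRP2-high libraries, against 10262 and 9583 in NRP2-low libraries, and 388 and 385 TPM against 418 and 412 TPM. The CPM values overlapped, at 531 ± 35.8 in NRP2-high cells and 512 ± 4.16 in NRP2-low cells (SD, n = 2 each), whereas both NRP2-high TPM values lay below both NRP2-low values. The log2 fold change was 0.05 ± 0.06 (SE) and turned to -0.06 without TMM factors or on log2(FPKM + 1) and to -0.10 on the TPM scales. With a constant of 1, the median of all genes on the TPM scale was itself -0.14. It passed as higher in 1 alternative, without NRP2-high replicate 1, at 0.13, and stood at -0.02 without NRP2-high replicate 2.

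Around NT5E, 10 genes of extracellular adenosine handling were tested, of which 3 were higher in NRP2-high cells, 4 lower and 3 did not pass (median log2 fold change -0.14). ENPP1, a pyrophosphatase that makes AMP from ATP, had 2244 and 2269 counts in NRP2-high libraries, against 416 and 388 in NRP2-low libraries (log2 fold change 2.53 ± 0.07 SE, edgeR adjusted p = 3.98e-10). ALPL, the tissue-nonspecific alkaline phosphatase, had 56 and 58 counts against 5 and 8 (3.14 ± 0.34 SE, edgeR adjusted p = 1.49e-05). PANX1, the channel that releases ATP, was higher by 0.73 (edgeR adjusted p = 1.08e-05). In the other direction, ENTPD2, which breaks down ATP to ADP, had 13 and 4 counts in NRP2-high libraries against 92 and 108 (-3.50 ± 0.36 SE, edgeR adjusted p = 1.09e-05). Its log2 fold change was -4.60 without NRP2-high replicate 1 and -2.86 without NRP2-high replicate 2. The remaining 3 that fell were the transporter SLC29A2 at -1.46, the receptor ADORA2B at -0.40 and the kinase ADK at -0.18. ENTPD1 (CD39), which supplies AMP to NT5E, had 133 and 168 counts against 188 and 171 and did not pass.

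**Figure D3:**
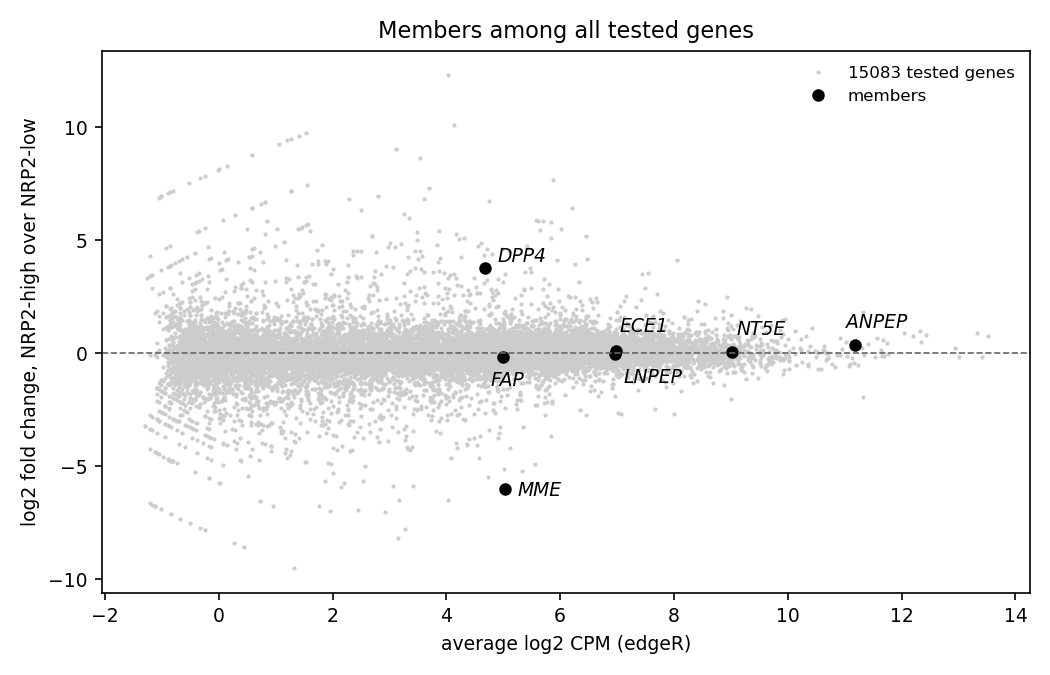
Log2 fold change, NRP2-high over NRP2-low, against average log2 CPM for the 15083 tested genes in grey, with the 7 members in black and named. MME has the 24th lowest and DPP4 the 147th highest log2 fold change, so other genes lie beyond both. The other 5 members lie within 0.4 of 0, among them ANPEP at the highly expressed end.

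By mean TPM, which corrects for transcript length, the members ran in NRP2-high cells from ANPEP through NT5E, ECE1, DPP4, LNPEP and FAP to MME. In NRP2-low cells the order was ANPEP, NT5E, ECE1, LNPEP, MME, FAP and DPP4. Within each population no 2 neighbours in the order had overlapping values in the 2 libraries, though some stood close. In NRP2-high libraries, DPP4 at 30.0 and 32.9 TPM lay just above LNPEP at 27.9 and 25.4. In NRP2-low libraries, LNPEP at 29.8 and 31.1 TPM lay above MME at 24.8 and 24.1. The top 3 places were thus the same in both populations, and DPP4 and MME took the last place in one each. The summed TPM of the members was 2299 and 2268 in NRP2-high libraries, against 2067 and 2083 in NRP2-low libraries, a gap smaller than that of ANPEP alone, with mean TPM of 1766 against 1524.

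The messengers these enzymes act on, and their receptors, were described from lists of related genes. Counts of calls in each list stand beside 28.9% higher and 27.7% lower over all tested genes. Of the endothelin genes, which connect to ECE1, 2 of 4 tested were higher in NRP2-high cells, 0 lower and 2 did not pass (median 0.69). The receptor EDNRA had 115 and 105 counts in NRP2-high libraries, against 26 and 28 in NRP2-low libraries (log2 fold change 2.06 ± 0.21 SE, edgeR adjusted p = 1.15e-05). EDN2 had 60 and 44 counts against 33 and 16 (1.12, edgeR adjusted p = 0.0133), a call that was lost in 5 of 14 alternatives. EDN1, whose product ECE1 cleaves, had 677 and 713 counts against 672 and 662 and did not pass (log2 fold change 0.10). The receptor EDNRB did not pass either, at 0.26 (edgeR adjusted p = 0.0573).

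Of the angiotensin and kinin genes, 2 of 5 tested were higher in NRP2-high cells, 2 lower and 1 did not pass (median 0.00). The bradykinin receptor BDKRB2 was higher by 0.58 and ATP6AP2, an accessory protein of the vacuolar proton pump, by 0.42 (edgeR adjusted p = 0.000596 and 4.74e-05), each lost in 2 alternatives. AGTRAP, which binds the angiotensin receptor, had 82 and 75 counts in NRP2-high libraries, against 286 and 277 in NRP2-low libraries (log2 fold change -1.80, edgeR adjusted p = 1.03e-06). AGTR1, the receptor itself, had 141 and 124 counts against 234 and 233 (-0.78, edgeR adjusted p = 0.000515). AGT, the angiotensinogen gene, did not exceed 1 count in any library.

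Of the other peptide ligands and receptors, 8 of 31 listed were tested, with 0 higher, 3 lower and 5 not passing (median -0.04). RAMP1, the partner of the receptor for calcitonin gene-related peptide, had 20 and 17 counts in NRP2-high libraries, against 369 and 373 in NRP2-low libraries (log2 fold change -4.28 ± 0.17 SE, edgeR adjusted p = 6.84e-09). The gene of that receptor, CALCRL, had 5 and 6 counts against 6 and 6, too low to be tested. RAMP2 and RAMP3 did not exceed 5 counts in any library. Adrenomedullin, ADM, had 183 and 147 counts against 446 and 430 (-1.37, edgeR adjusted p = 5e-06). OXTR, the receptor for the oxytocin that LNPEP degrades, had 2163 and 2498 counts against 3143 and 3000 (-0.36, edgeR adjusted p = 0.000284). The neurotensin receptor NTSR1 did not pass, at 0.30. Counts for TACR1, the substance P receptor, and PENK, the enkephalin precursor, did not exceed 6 in any library.

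Of the ligands and partners of DPP4, 4 of 19 listed were tested, with 1 higher, 2 lower and 1 not passing (median -1.89). The chemokine CCL5 had 8 and 5 counts in NRP2-high libraries, against 88 and 95 in NRP2-low libraries (log2 fold change -3.75 ± 0.31 SE, edgeR adjusted p = 2.11e-06). NPY1R, a receptor for neuropeptide Y, had 1 and 3 counts against 25 and 29 (-3.64 ± 0.52 SE, edgeR adjusted p = 0.000139). Its log2 fold change was -4.52 without NRP2-high replicate 2. ACKR3, the scavenger receptor for CXCL12, was higher by 0.68 (edgeR adjusted p = 0.0257), a call lost in 8 of 14 alternatives. CAV1 did not pass at -0.13 (edgeR adjusted p = 0.076) and passed as lower in 8 alternatives. CXCL12 had 1 and 0 counts in NRP2-high libraries against 0 and 0, and its receptor CXCR4 had 0 and 0 against 2 and 2.

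Of the other peptide-processing ectoenzymes, 4 of 8 tested were higher in NRP2-high cells, 3 lower and 1 did not pass (median 0.00). The membrane-anchored carboxypeptidase M (gene CPM) had 276 and 276 counts in NRP2-high libraries, against 51 and 53 in NRP2-low libraries (log2 fold change 2.44 ± 0.15 SE, edgeR adjusted p = 1.58e-07). CPE and CPD, which act in the secretory pathway, were higher by 1.74 and 0.79 (edgeR adjusted p = 2.01e-06 and 4.42e-07). The angiotensin-converting enzyme ACE, the fourth, had 127 and 117 counts against 92 and 81 (0.53, edgeR adjusted p = 0.0164). Of those that fell, GGT7 stood at -1.29, NAALAD2, itself a glutamate carboxypeptidase, at -1.54 and GGT5 at -0.66 (edgeR adjusted p = 2.84e-05, 0.00524 and 0.00811). Over the 54 related genes tested in all 9 lists, 14 were higher, 19 lower and 21 did not pass, with a median log2 fold change of -0.03 beside -0.01 for all genes. The share over all tested genes was 28.9% higher and 27.7% lower, 56.5% in either direction, and nothing is read from the counts.

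**Figure D4:**
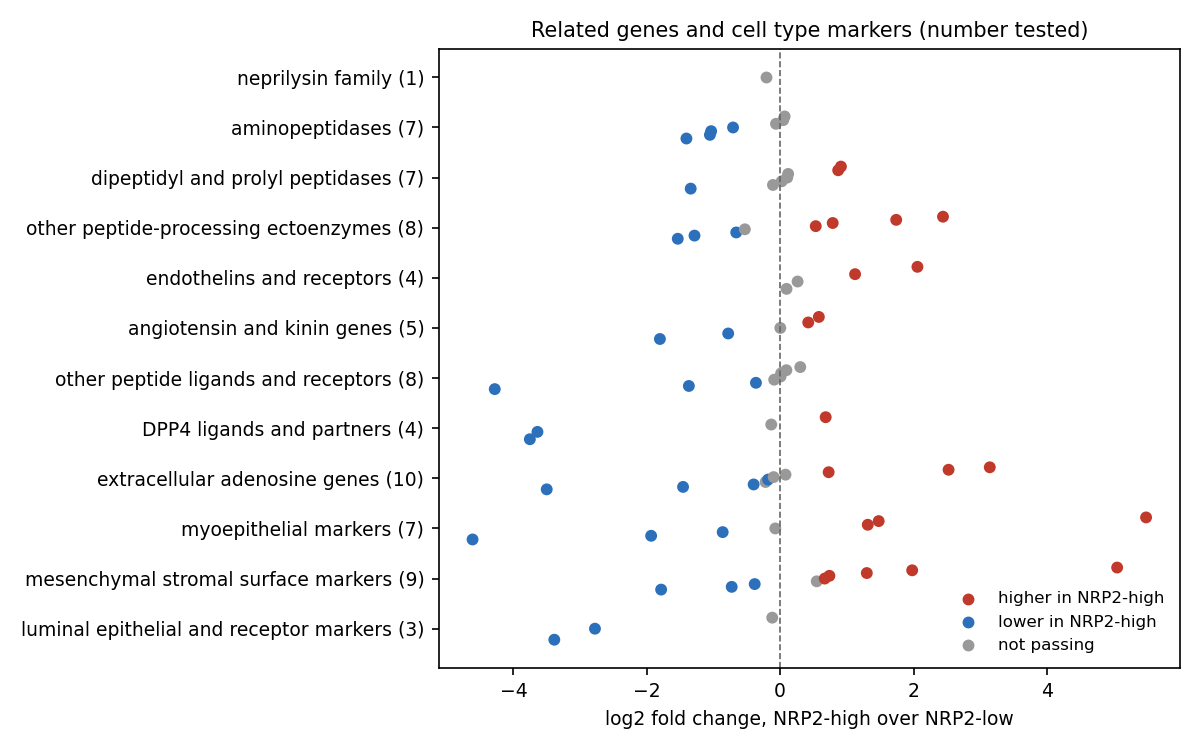
Log2 fold change, NRP2-high over NRP2-low, of each tested gene in 9 lists related to the members and 3 cell type marker lists with a tested gene, the number tested in parentheses. Red points were higher and blue points lower in NRP2-high cells at an edgeR adjusted p below 0.05, and grey points did not pass. The aminopeptidases hold 4 blue points and no red ones, and the extracellular adenosine genes hold 3 red and 4 blue points. For comparison, 56.5% of the 15083 genes passed in either direction. The lists are short and none was tested as a set, so nothing is read from these colours.

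Since neprilysin marks myoepithelial cells and CD13 and CD73 mark mesenchymal stromal cells, markers of these types were measured beside the members. Counts of calls among the markers stand beside 28.9% higher and 27.7% lower over all tested genes. The myoepithelial markers divided: 3 of 7 tested were higher in NRP2-high cells, 3 lower and 1 did not pass. Higher were the smooth muscle genes ACTA2, with 2264 and 2519 counts in NRP2-high libraries against 57 and 52 (log2 fold change 5.49, edgeR adjusted p = 3.63e-11), TAGLN at 1.48 and MYLK at 1.31. Lower were the basal keratins KRT5 at -4.61 and KRT14 at -1.94 and the cadherin CDH3 at -0.86. The smooth muscle myosin MYH11 did not pass, with 12 and 14 counts against 8 and 20 (log2 fold change -0.07, edgeR adjusted p = 0.912). MME was thus lower together with the 3 lower markers of this list, and the list as a whole had no single direction. The summed TPM of the 10 markers was 223 and 198 in NRP2-high libraries, against 100.1 and 100.3 in NRP2-low libraries. That gap was carried by ACTA2. The other 9 markers summed to 79.0 and 61.3 TPM in NRP2-high libraries, against 96.6 and 96.9 in NRP2-low libraries. The lower sum of those 9 was in turn carried by KRT5, one of the genes picked above for likeness to MME. With KRT5 also left out, the sum was again higher in both NRP2-high libraries. The direction of the sum thus depended on single genes. The remaining markers of the list were too low to be tested. No library held more than 6 counts of TP63 or KRT17, while CNN1 had 16 and 9 counts in NRP2-high libraries against 1 and 2.

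Of the mesenchymal stromal surface markers, 5 of 9 tested were higher in NRP2-high cells, 3 lower and 1 did not pass (summed TPM 2295 and 2259 against 1875 and 1911). The gap in this sum was carried by the integrin ITGB1, with 1307 and 1298 TPM in NRP2-high libraries against 899 and 925, and the other 10 markers summed to 989 and 961 TPM against 976 and 986. The endoglin gene ENG had 660 and 709 counts in NRP2-high libraries, against 20 and 22 in NRP2-low libraries (log2 fold change 5.05, edgeR adjusted p = 5.27e-10). MCAM was higher by 1.98 and ALCAM by 0.74, while LEPR fell by 1.79 (edgeR adjusted p = 9.64e-09, 1.52e-06 and 1.27e-08). CD44 and THY1 were also lower, at -0.73 and -0.38. Of the luminal and receptor markers, 2 of 3 tested were lower, KRT18 at -3.39 and KRT8 at -2.78 (edgeR adjusted p = 5.86e-06 and 4.61e-05), and ERBB2 did not pass. EPCAM and CDH1 did not exceed 5 counts in any library.

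Markers of blood and vessel cells, which also carry several of these enzymes, were near 0. None of the leukocyte and B-lineage or endothelial markers passed the filter on low counts. The summed TPM of the leukocyte markers was 0.837 and 0.397 in NRP2-high libraries, against 0.921 and 1.54 in NRP2-low libraries, with 4 and 6 counts of PTPRC (CD45) against 2 and 8. PECAM1 had 8 and 14 counts against 1 and 1. In these bulk libraries, fewer cells carrying a transcript and less of it per cell cannot be told apart, for MME and DPP4 as for the markers.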

How the data were processed

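Polyadenylated RNA of BT549 cells was sequenced from 2 NRP2-high and 2 NRP2-low libraries made with a stranded kit. The sources name 2 different RNA extraction kits. Per the labels and the study's methods, the authors aligned reads to hg38 with STAR and counted fragments over exons with featureCounts. The annotation release is not given in the sources used here. The authors deposited raw counts per gene and, from the same counts and gene lengths, TPM and FPKM. Recomputing TPM and FPKM from the counts gave the deposited values to within 0.0303%. No column of the authors' own comparisons was used.

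Counts were tested with edgeR 4.0.16 (R 4.3.3; TMM factors, default low-count filter, quasi-likelihood test of NRP2-high over NRP2-low, Benjamini-Hochberg adjustment over 15083 genes, threshold 0.05). Standard errors were taken as the absolute log2 fold change divided by the square root of F. The fit had a common biological coefficient of variation of 0.0502 and 2 residual degrees of freedom. CPM values use TMM library sizes. The fit was also run on simulated counts with known changes and the same spread for all genes and libraries. That run does not cover the unequal spread of the 2 populations given next. The 2 libraries of a population differed by more than sampling noise (chi-square per gene 10.2 in NRP2-high and 1.59 in NRP2-low libraries), so none was treated as a duplicate of another.

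Members and lists were chosen with earlier results of these data known. Named were all members, of each list up to 4 tested genes with the smallest adjusted p, and the 5 genes nearest to MME in log2 CPM (prior count 2). Genes named beyond that rule, such as ACE, NAALAD2, GGT5, SLC29A2, ADORA2B, ADK, ENTPD1, ITGB1, MYH11, NPEPPS, RNPEP, AOPEP, DPP8, DPP9, MYLK, KRT14, CD44, THY1 and those with counts too low to test, were chosen after their values were seen, as were all neighbours within 500 kb. Of 162 listed genes other than members, 122 had a row, and the rest were not analysed here. Antisense and overlapping genes may share reads, since the strand setting of the counting is not stated. Alternatives were DESeq2 1.42.0, other scalings and filters, limma 3.58.1 on log2 TPM or FPKM, a replicate block and leaving out each library. Figures were drawn with matplotlib 3.10.9.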

Additional observations from a re-analysis of the deposited data

How the results depend on the processing

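MME stayed lower and DPP4 and ANPEP higher, each past the threshold, in all 14 alternatives. ANPEP came much closer to the threshold than MME and DPP4, and passed only narrowly on the TPM scales, at a log2 fold change of 0.21. Over the alternatives for the 55 named genes with a fit, 726 values stayed on the same side of the threshold, 21 gained a call, 17 lost one and 0 reversed a call. The 726 include values that passed in neither fit and changed sign, as for ECE1 and NT5E. The share of higher genes among all calls was 51.0% with TMM factors, 40.3% without them (3504 higher, 5182 lower; median log2 fold change -0.12), 35.9% on log2(TPM + 1) (2594 higher, 4628 lower; median -0.14), 36.0% on log2(TPM + 0.1) (2556 higher, 4545 lower; median -0.16) and 40.2% on log2(FPKM + 1). On both TPM scales 9 related genes were higher in place of 14. Members called lower numbered 3 without TMM factors (MME, LNPEP and FAP), and 2 (MME and FAP) on both TPM scales and on log2(FPKM + 1). DESeq2 called 3470 genes higher and 2882 lower.

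Leaving out each library in turn gave 1 to 2 members lower, with FAP added without NRP2-high replicate 2, and 2 to 3 higher. It gave 3320 to 4849 genes higher, 3061 to 4625 lower, 11 to 16 related genes higher and 17 to 22 lower. The lone library then left in a population is assumed to vary like the other population, yet the NRP2-high pair differed more (chi-square per gene 10.2) than the NRP2-low pair (1.59). The calls gained by ECE1, NT5E and FAP on leaving out a library came from fits without an NRP2-high library. The libraries share replicate numbers, but nothing ties equal numbers together, and deviations of equal numbers correlated at -0.01 over 15083 genes. A replicate block gave 4509 genes higher, 4371 lower, 2 members higher, 1 lower, and 14 and 19 related genes.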
